A study of Mus musculus with 12 samples.

Results

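The genes described here encode the nucleus-encoded subunits of the mitochondrial respiratory chain, measured in 6 brain regions of wild-type (WT) mice and of mice lacking interleukin-18 (KO). They were taken by symbol: every gene whose name starts with Ndufa, Ndufb, Ndufc, Ndufs, Ndufv, Sdh, Uqcr or Cox4 to Cox8, without the Ndufaf assembly factors, each through its probe of highest mean. This gave 67 genes of 33390 genes and unnamed transcripts on the array, 16358 of which carry a gene name. By complex there were 35 genes of complex I (6 of its catalytic core and 29 accessory), 4 of complex II, 8 of complex III and 18 of complex IV. The complexes too were set by symbol, so Ndufa4 counts under complex I and Cox7a2l under complex IV. Cyc1, a complex III subunit whose symbol starts otherwise, is not among the members. Sdhaf2 and Sdhaf4, which help to assemble complex II and are no subunits, came in through the Sdh prefix. Of 75 protein-coding genes in the reference that the prefixes fit, 8 had no matched probe and are not analysed here, among them Ndufv2, Ndufa11, Ndufb1 and Ndufa4l2.

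The study set IL-18 KO against WT mice, IL-18 being a cytokine of the interleukin-1 family, and its title names neuropeptides of the amygdala and behaviour. All mice were males of 12 weeks labelled C57BL/6, F2 littermates bred from IL-18-/- males and C57BL/6J females, perfused before dissection. The allele is given only as IL-18 KO, with no promoter or cell type restriction named. The hypothalamus, hippocampus, amygdala, striatum, prefrontal cortex and olfactory bulb each gave 1 WT and 1 KO array, and each array held RNA pooled from 5 mice. The labels do not tell if the same mice entered the pools of several regions. The text on the series places the prefrontal slice anterior to bregma and the sample text places it posterior.

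The respiratory chain passes electrons from NADH (complex I) and succinate (complex II, also an enzyme of the tricarboxylic acid cycle) through ubiquinone, complex III and cytochrome c to oxygen at complex IV, and complexes I, III and IV pump protons that drive ATP synthase. The catalytic centres of complexes III and IV and the membrane arm of complex I are partly encoded by mitochondrial DNA, which these genes do not cover. Several complex IV subunits exist as pairs, with one form made in most tissues (Cox6a1, Cox7a2, Cox8a) and another known from heart and skeletal muscle (Cox6a2, Cox7a1, Cox8b). Neurons depend heavily on this pathway, and its nuclear genes are known targets of the factors NRF1, GABP (an ETS factor), YY1 and ERR alpha.

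Promoters are shown for 5 members on which the results below turn: Ndufa5 and Uqcr11 were among the members highest in the striatum, Sdhb and Ndufs8 among those lowest there, and Sdhd is encoded near the targeted gene. Each runs 5′ to 3′ on the gene's strand, from 250 bases before to 30 after the transcription start, from RefSeq on GRCm38.p6. The windows are chr6:24527497-24527776 (minus strand, 1 of the windows listed for Ndufa5), chr10:80406792-80407071 (minus), chr4:140961021-140961300 (plus), chr19:3912745-3913024 (minus) and chr9:50603820-50604099 (minus). Capitals mark a match to 1 of 4 motifs searched on both strands, GCGC, any base and then TGCGC (NRF1), CCGGAAGT (ETS), AAGATGGC (YY1) and CAAGGTCA (ERR).
Ndufa5: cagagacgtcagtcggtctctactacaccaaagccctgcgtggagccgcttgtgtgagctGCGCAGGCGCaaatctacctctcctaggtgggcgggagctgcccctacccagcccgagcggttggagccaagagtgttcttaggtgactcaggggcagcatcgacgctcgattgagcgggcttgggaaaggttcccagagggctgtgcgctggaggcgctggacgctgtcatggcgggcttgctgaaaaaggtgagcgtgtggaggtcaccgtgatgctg
Uqcr11: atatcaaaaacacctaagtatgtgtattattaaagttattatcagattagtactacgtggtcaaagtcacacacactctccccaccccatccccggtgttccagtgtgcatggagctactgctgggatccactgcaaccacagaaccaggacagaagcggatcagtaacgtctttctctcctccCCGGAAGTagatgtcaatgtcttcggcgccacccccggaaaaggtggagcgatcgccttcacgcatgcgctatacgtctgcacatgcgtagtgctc
Sdhb: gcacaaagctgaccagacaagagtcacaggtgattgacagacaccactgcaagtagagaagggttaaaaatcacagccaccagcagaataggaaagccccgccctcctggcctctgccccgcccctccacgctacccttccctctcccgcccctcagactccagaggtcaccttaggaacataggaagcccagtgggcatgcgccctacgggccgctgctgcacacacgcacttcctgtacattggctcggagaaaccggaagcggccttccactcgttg
Ndufs8: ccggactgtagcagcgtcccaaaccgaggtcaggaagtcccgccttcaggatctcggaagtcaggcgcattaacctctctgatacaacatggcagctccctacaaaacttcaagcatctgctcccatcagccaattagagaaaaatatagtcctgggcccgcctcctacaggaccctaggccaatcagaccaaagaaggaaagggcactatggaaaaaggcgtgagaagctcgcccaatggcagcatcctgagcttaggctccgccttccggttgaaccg
Sdhd: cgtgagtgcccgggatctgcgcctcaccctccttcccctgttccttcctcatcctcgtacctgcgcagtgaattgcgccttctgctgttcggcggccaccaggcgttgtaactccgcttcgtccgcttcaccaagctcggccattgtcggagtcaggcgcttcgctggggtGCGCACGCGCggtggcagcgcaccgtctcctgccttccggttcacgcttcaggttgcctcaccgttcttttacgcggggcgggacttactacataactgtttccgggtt
Ndufa5 and Sdhd hold 1 NRF1 match each and Uqcr11 holds 1 ETS match, while these letters do not occur in the windows of Sdhb and Ndufs8. Of the members, 54 had a promoter in the table, and 10 of them (18.5%) held the NRF1 motif: Cox6a1, Ndufa5, Ndufa8, Ndufb4, Ndufs5, Ndufs6, Sdha, Sdhaf4, Sdhd and Uqcrc1. Among all 27025 genes with a promoter the share was 4.98%. The ETS motif was found in 4 members (7.41%, against 4.12% of all genes), YY1 in 2 (3.70% against 2.66%) and ERR in 1 (1.85% against 1.66%). The 5 promoters shown do not stand for their sets. Of the members called in the striatum under all 4 signal treatments described below, 9 higher and 12 lower ones had a promoter. NRF1 was found in 1 of these 9 and 2 of these 12, ETS in 2 and 0, YY1 in 1 and 0 and ERR in 0 and 0. A match is a description of the letters, and no binding was measured.

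Levels below are log2 of the spot's processed intensity minus the 75th percentile of its array, so that 1 unit is 2-fold. Nearly all members were well measured: 64 of the 67 were well above background on all 12 arrays. Cox7b2 was above it on 11 arrays, Cox4i2, a lung form of subunit 4, on 9, and Cox8c, a testis form of subunit 8, on 0. The other 66 were tested. The 75th percentile ran from 208 and 272 on the striatum arrays to 768 on the amygdala KO array, and each region had a slide of its own, so region and slide cannot be told apart.

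The labels were checked against markers. Il18 itself differed by -4.36 between KO and WT arrays (SE 0.16, limma adjusted p = 0.000615), and the KO array was the lower in 6 of 6 regions. Marker genes of olfactory bulb (6 of 6), cortex (8 of 8), striatum (9 of 9), hippocampus (6 of 6) and hypothalamus (9 of 9) were higher in the region they mark. Of 6 amygdala markers 3 were higher and 1 lower in the amygdala. In the hypothalamus 3 of these 6 were higher and 0 lower, so the list did not separate the amygdala from the hypothalamus. The array labelled amygdala WT did not follow its partner: the median of 9 hypothalamus markers, relative to their means over the 12 arrays, was 3.77 there, beside 3.42 and 3.83 on the hypothalamus arrays and -0.76 on the amygdala KO array. Counts of members by region and the main values between genotypes are therefore also given without the amygdala arrays.

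**Figure D1:**
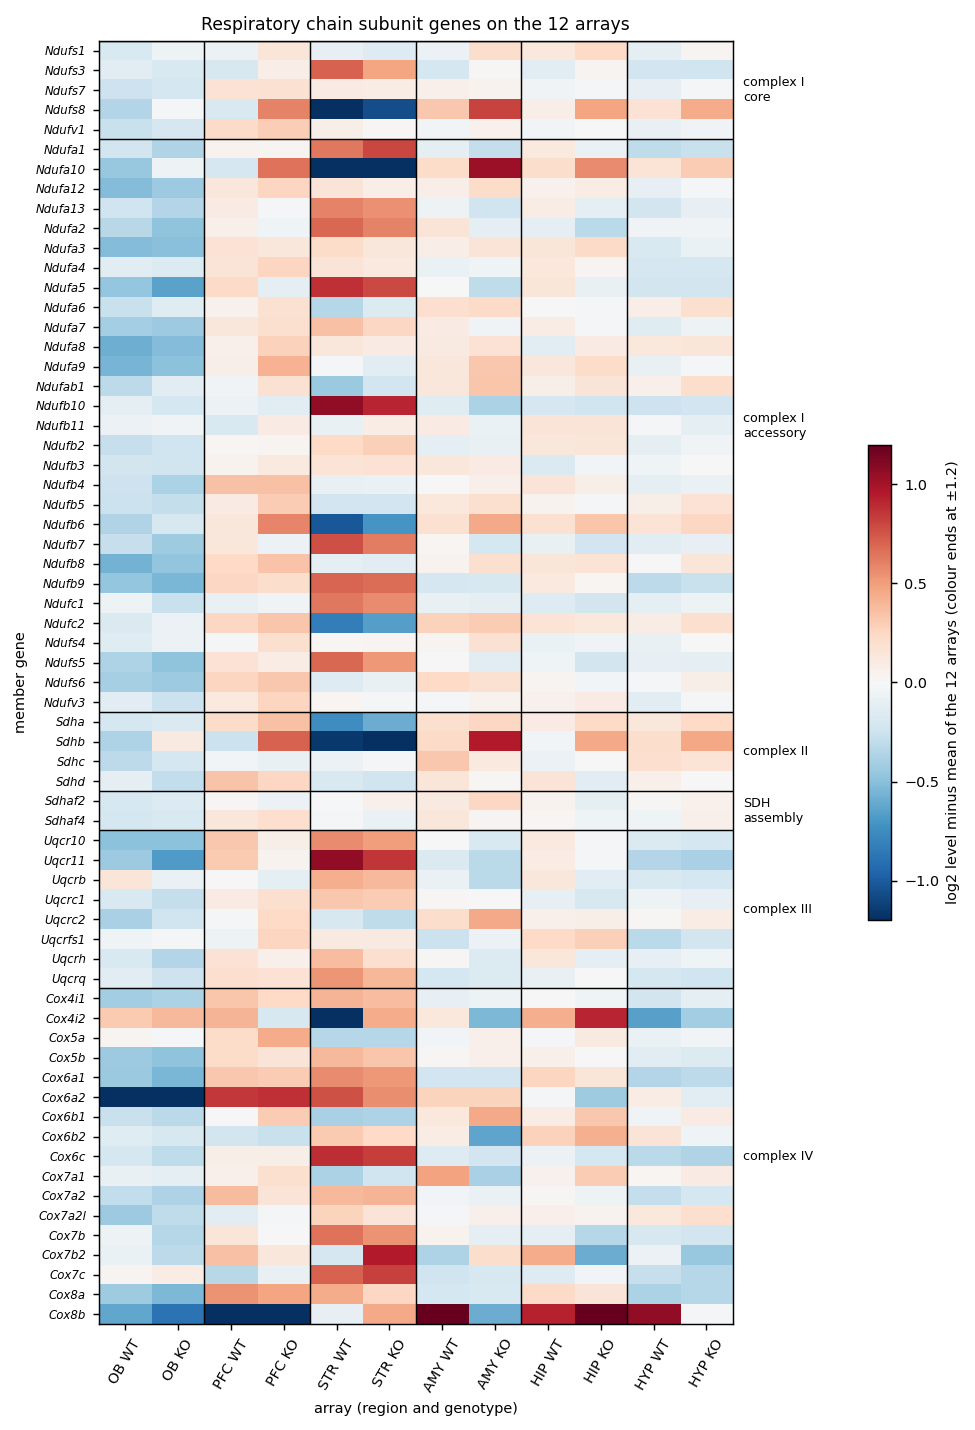
Each row is 1 of 65 of the 66 tested members, grouped by complex, and each column 1 array; colour gives the log2 level minus the gene's mean over the 12 arrays, and colours end at 1.2 in either direction. OB is olfactory bulb, PFC prefrontal cortex, STR striatum, AMY amygdala, HIP hippocampus and HYP hypothalamus. The olfactory bulb columns are mostly blue, the striatum columns hold both the reddest and the bluest members, and Cox6a2 and Cox8b at the foot follow patterns of their own.

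The levels of the members varied between regions. The range between the highest and the lowest region mean had a median of 0.72 over the 66 genes and passed 2-fold for 21 of them. The striatum was the highest region for 28 members and the lowest for 14, and the olfactory bulb was the highest for 0 and the lowest for 36. These ranges and counts were not taken over all genes, so a trait particular to the members cannot be read from them. Each region was then compared with the average of the remaining 5 in a limma fit over all 24862 genes tested, with genotype as a covariate and a Benjamini-Hochberg adjusted p under 0.05 as the threshold. These p-values rest on 2 arrays per region, 1 per genotype and both on the same slide. The spread they use is how far a region's KO minus WT difference departs from the one common to the regions. It holds no spread between slides, or between pools of the same region and genotype. Where a count of members called stands without the share of all genes, a change particular to the members cannot be read from it.

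In the striatum members were found on both sides of the other regions: 30 of the 66 members were higher and 14 lower (37.1% and 28.9% of all genes tested), with a median difference of 0.18. The split ran across the complexes. Complex III (6 higher, 1 lower of 8) and complex IV (10 higher, 2 lower of 17) lay mostly above the other regions with the 75th percentile, and complex II had 0 higher and 3 lower of 4. Complex I was divided, with 14 higher and 8 lower of 35. These counts depend on the scaling, at 14 higher and 27 lower (32.8% and 33.4% of all genes) after quantile normalization, and 4 members were called in opposite directions under different treatments of the signal. Under all 4 treatments alike (75th percentile, median scaling, quantile normalization and normexp background correction), 14 members were higher and 14 lower (29.0% and 17.7% of all genes), counts not far from those shares of 66. By complex these were 2 higher and 1 lower in complex III, 4 and 2 in complex IV, 8 and 8 in complex I and 0 and 3 in complex II, and the 4 members with opposite calls were 1 of complex III and 3 of complex IV. Without both amygdala arrays 32 were higher and 14 lower (35.9% and 30.3% of all genes).

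Ndufb10, Uqcr11, Cox6c and Ndufa5 were the members farthest above the other regions in the striatum. Ndufb10, an accessory subunit of the complex I membrane arm, read 7.48 (WT) and 7.34 (KO) in the striatum, against a lowest of 6.04, a median of 6.21 and a highest of 6.35 on the other 10 arrays. Both striatum arrays lay above all others, and the difference was 1.19 (SE 0.069, limma adjusted p = 2e-05). Uqcr11, a small subunit of complex III, read 6.92 and 6.71 against 5.18 to 6.18 elsewhere, a difference of 1.15 (SE 0.070, limma adjusted p = 2.2e-05). Cox6c of complex IV read 7.22 and 7.16 against 5.97 to 6.40 and differed by 1.03 (SE 0.059). Ndufa5, an accessory subunit of the complex I peripheral arm, read 6.95 and 6.86 against 5.43 to 6.30 and differed by 1.00 (SE 0.082). For each of these 4 genes the striatum arrays did not overlap the others, with the highest other array being prefrontal cortex WT.

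Also higher under all 4 treatments were Cox6a2, Cox7b, Cox7c, Ndufa1, Ndufa2, Ndufb7, Ndufb9, Ndufc1, Ndufs3 and Uqcrb. Ndufs3, at 0.71 (SE 0.105), is the 1 member of the complex I core in this set.

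At the other end lay Sdhb, Ndufa10 and Ndufs8. Sdhb, the iron-sulfur subunit of complex II, read 1.92 (WT) and 1.79 (KO) in the striatum, against a lowest of 2.71 (olfactory bulb WT), a median of 3.30 and a highest of 4.04 (amygdala KO) on the other 10 arrays. The striatum arrays lay below all others, by a difference of -1.48 (SE 0.185, limma adjusted p = 0.000402). Ndufs8, the core subunit that holds iron-sulfur clusters next to the quinone site, read -0.40 and -0.19 against 0.52 to 1.69, a difference of -1.40 (SE 0.110, limma adjusted p = 5.4e-05). Ndufa10, an accessory subunit of complex I, read 0.24 and 0.20 against 0.99 to 2.47 and differed by -1.47 (SE 0.174). Again the striatum arrays of all 3 genes lay below the other 10.

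Sdha, the flavoprotein of complex II, differed by -0.80 (SE 0.059) and its membrane anchor Sdhd by -0.25 (SE 0.068), while the other anchor, Sdhc, at -0.06, missed the threshold. Cox5a, Cox6b1, Ndufa6, Ndufab1, Ndufb5, Ndufb6, Ndufc2 and Uqcrc2 were also lower under all 4 treatments, as were Sdha, Sdhd and the 3 genes above. Over all members, both striatum arrays lay above the other 10 for 26 (22.8% of all genes) and below them for 9 (16.5% of all genes). The 2 core proteins of complex III lay on opposite sides in the striatum, Uqcrc1 at 0.38 (SE 0.064) and Uqcrc2 at -0.30 (SE 0.086), though a second probe of Uqcrc1 read -0.048 and was not called. Under quantile normalization Uqcrc1 stood at 0.0048 there and Uqcrc2 at -0.54. Further mitochondrial genes went both ways in the striatum, where 37.1% of all genes were higher and 28.9% lower. Of 16 genes of the tricarboxylic acid cycle and of pyruvate dehydrogenase (Pdha1, Pdhb and Dlat) 1 was higher and 11 lower (median -0.58). Of 7 genes listed as electron carriers (Cycs, Cyc1, Etfa, Etfb, Etfdh, Dhodh and Gpd2) 1 was higher and 4 lower. Cyc1, a complex III subunit that is not a member, differed by -0.93 (SE 0.079). Of 27 respiratory chain assembly genes 12 were higher and 7 lower (median 0.065). Of 10 regulators of mitochondrial biogenesis 5 were higher and 2 lower (median 0.18). Of 16 ATP synthase genes 5 were higher and 4 lower (median 0.11), but 1 higher and 12 lower after quantile normalization (median -0.36). Of 10 neuron genes 6 were lower and 1 higher, of 9 oligodendrocyte genes 6 were higher and 1 lower, and of 10 endothelium genes 8 were higher. The part of these in the members' differences was not tested, and in bulk tissue fewer cells of a type and less RNA per cell cannot be told apart.

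**Figure D2:**
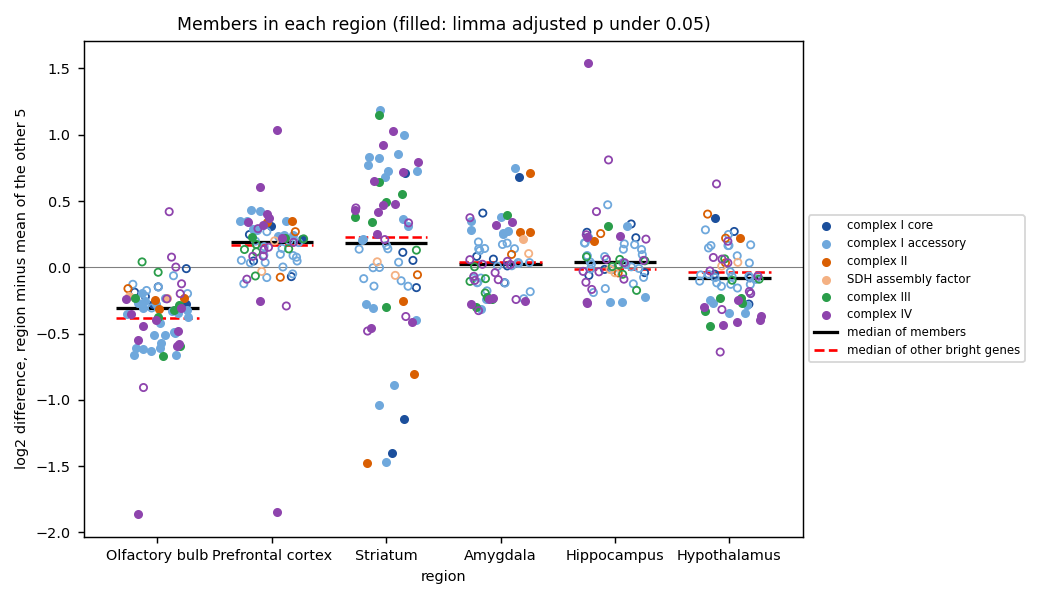
Each point is 1 of the 66 members, coloured by complex; the vertical axis gives the log2 difference between a region and the mean of the other 5, and filled points passed the threshold. The black line is the members' median. The dashed red line is the median of 1725 other genes whose mean level reached the members' lower quartile. The olfactory bulb points lie almost wholly below 0, and the striatum points spread from -1.48 to 1.19.

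For some members with several probes the striatum difference depended on the probe. Probes above background numbered more than 1 for 12 members, 28 probes in all. In the striatum 9 of these probes were higher and 12 lower. In 2 of the 12 genes the probes gave opposite calls, and in 5 all probes were called alike. For Ndufa7, an accessory subunit of complex I, the brightest probe differed by 0.36 (SE 0.072) and the second by -0.62 (SE 0.083). For Ndufc1, another accessory subunit, the values were 0.72 (SE 0.072) and -0.32 (SE 0.064). Ndufa12, Sdhaf2 and Uqcrc1 had probes of opposite sign without opposite calls. All probes were called alike for Cox7a2, Ndufa1 and Uqcrh (higher) and for Ndufab1 and Sdha (lower).

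Opposite calls in 2 of 12 members are close to the share among all 4359 genes with several probes, 15.9% in the striatum, against 0.73% in the prefrontal cortex and at most 2.94% in the other regions. Sdhb, Ndufs8, Ndufa10, Ndufb10, Uqcr11, Cox6c and Ndufa5 have 1 probe each here, so their striatum values cannot be set against a second probe.

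**Figure D3:**
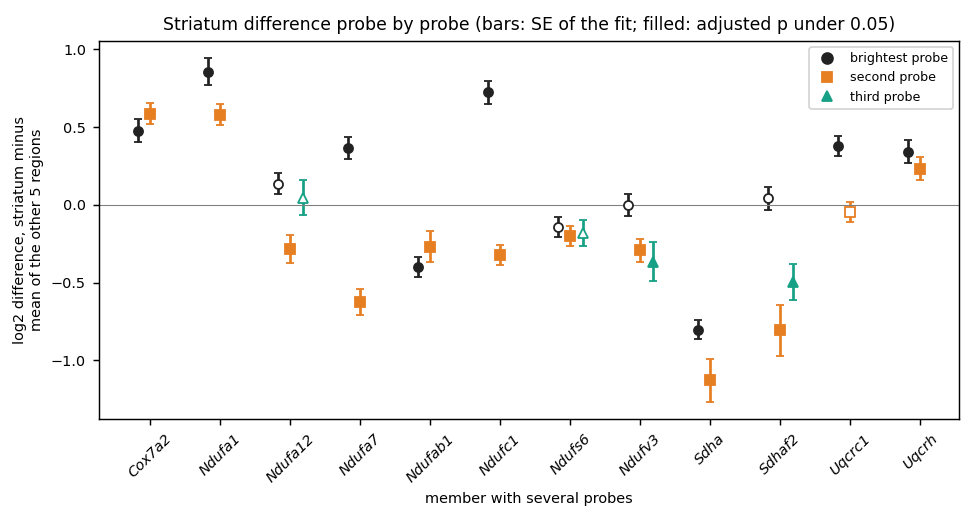
Members with more than 1 probe above background, with the log2 difference of each probe between the striatum and the mean of the other 5 regions on the vertical axis. Bars are the SE of the limma fit, symbols rank the probes of a gene by brightness, and filled symbols passed the threshold. Ndufa7 and Ndufc1 have one filled symbol on each side of 0, and both probes of Sdha lie below it.

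In the olfactory bulb the members lay below the other regions nearly throughout, 0 of 66 higher and 46 lower (25.0% and 26.6% of all genes tested), with a median difference of -0.31. All complexes shared this: 25 of 35 complex I genes, 3 of 4 of complex II, 6 of 8 of complex III and 10 of 17 of complex IV were lower. Other bright genes, whose mean level reached the members' lower quartile, did the same: 67.0% of them were lower, with a median of -0.38. Members below that quartile have no match in brightness among them. After quantile normalization the members' median was -0.00028, with 12 higher and 8 lower (25.0% and 24.7% of all genes). Of the members, 5 were called in opposite directions under different treatments. Under all 4 treatments 0 members were higher and 8 lower (13.7% and 20.5% of all genes): Cox6a2, Cox6b1, Ndufa12, Ndufa3, Ndufa8, Ndufa9, Ndufb8 and Uqcr11. Leaving out the olfactory bulb WT array left 23 members lower (16.7% of all genes) and leaving out the KO array 20 (16.3%). Without both amygdala arrays 0 were higher and 48 lower (22.6% and 27.9% of all genes).

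Cox6a2 was the member farthest down in the olfactory bulb. It read -0.57 (WT) and -0.81 (KO) there, against 0.43 to 1.73 on the other 10 arrays, a difference of -1.86 (SE 0.092, limma adjusted p = 1.6e-05). Uqcr11 read 5.42 and 5.18 against 5.47 to 6.92 and differed by -0.67 (SE 0.070). Ndufa8, an accessory subunit of complex I, read 3.62 and 3.69 against 4.08 to 4.48 and differed by -0.66 (SE 0.073). Ndufa5 differed by -0.66 (SE 0.082) and lost its call after quantile normalization. Both olfactory bulb arrays lay below the other 10 for 33 members (14.3% of all genes) and above them for 0 (11.2%). Of 10 regulators of mitochondrial biogenesis, among them the factors named above, 6 were higher in the olfactory bulb and 0 lower, with a median of 0.47, and of 27 respiratory chain assembly genes 19 were lower and 1 higher (median -0.37), or 11 lower and 3 higher after quantile normalization (median -0.15).

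In the prefrontal cortex 24 members were higher and 2 lower (19.5% and 14.4% of all genes tested), with a median of 0.19. Among the other bright genes, 39.3% were higher. After quantile normalization 6 members were higher and 5 lower (18.4% and 15.7% of all genes). Without the prefrontal cortex WT or KO array 9 and 5 were higher (8.46% and 8.57% of all genes), and without either olfactory bulb array 15. Without both amygdala arrays 28 were higher and 4 lower (21.7% and 21.3% of all genes). Under all 4 treatments 6 were higher and 1 lower (13.9% and 8.99% of all genes). The 6 were Cox4i1, Cox5a, Cox6a2, Cox8a, Ndufb4 and Ndufb8, of which the first 4 belong to complex IV. Cox8a read 7.78 (WT) and 7.72 (KO) against 6.71 to 7.69 on the other arrays and differed by 0.61 (SE 0.068, limma adjusted p = 0.00114). Ndufb4 of the complex I membrane arm read 5.13 and 5.14 against 4.40 to 4.94 and differed by 0.42 (SE 0.065). Ndufb6 differed by 0.43 (SE 0.082), lost after quantile normalization or without the prefrontal cortex KO array. Cox7c, lower at -0.26 (SE 0.073), lost its call under median scaling and in 7 of the 12 fits that leave out 1 array. Of 10 neuron genes 8 were higher in this region, with a median of 0.67, and 9 of 9 oligodendrocyte genes were lower, and their part in the members' values was not tested.

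The members' medians in the amygdala, hippocampus and hypothalamus lay nearer 0. In the amygdala 15 members were higher and 9 lower (16.3% and 31.7% of all genes tested), with a median of 0.03. Under all 4 treatments 12 were higher and 0 lower (12.1% and 12.2% of all genes). Under median scaling 31 were higher and 0 lower (30.8% and 15.4% of all genes, and 49.5% of the other bright genes were higher). Without the WT array 9 were higher and 3 lower (13.6% and 26.8% of all genes), without the KO array 5 and 1 (9.13% and 14.2%), and 5 were lower without either olfactory bulb array. Highest among those called were Ndufa10 at 0.75 (SE 0.174), Sdhb at 0.71 (SE 0.185), Ndufs8 at 0.68 (SE 0.110) and Uqcrc2, a core protein of complex III, at 0.40 (SE 0.086). All but Ndufs8 lost their calls without the KO array, and the KO array read 4.04 for Sdhb against 3.31 on the WT array. Lowest among those called were Ndufb10 (-0.32), Uqcr11 (-0.30), Cox6a1 (-0.28) and Cox7c (-0.26), and all 4 lost their calls under median scaling, where Cox7c turned to 0.010. Set against hypothalamus WT, the array labelled amygdala WT gave a members' median absolute difference of 0.12, with 0 of 66 past 2-fold. Amygdala KO against hypothalamus KO gave much the same for the members, 0.12 with 0 past 2-fold, and the 2 amygdala arrays differed by a median of 0.14. Over all genes these medians were 0.11, 0.25 and 0.26.

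In the hippocampus 7 members were higher and 4 lower (23.7% and 12.8% of all genes tested), with a median of 0.04. Without either hippocampus array 0 were called in either direction (11.6% of all genes higher and 5.14% lower without WT, 8.72% and 4.77% without KO). Leaving out 1 array at a time, the members' median there ran from 0.017 to 0.079. Without both amygdala arrays 15 were higher and 6 lower (24.3% and 15.9% of all genes). Cox8b (1.54), Uqcrfs1, the Rieske iron-sulfur protein of complex III (0.31), Ndufb6 (0.31) and Cox6a1 (0.24) were the highest of the members called. Cox7b (-0.27), Ndufb10 (-0.26), Ndufa2 (-0.26) and Ndufc1 (-0.23) were the 4 called lower. Under all 4 treatments Cox8b was higher and Cox7b and Ndufa2 lower (10.4% and 11.9% of all genes). The call of Ndufc1 was lost in 11 of the 12 fits that leave out 1 array. A second probe of Ndufc1 was called higher in the hippocampus, at 0.20 (SE 0.064, limma adjusted p = 0.0480), so its direction there depended on the probe.

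In the hypothalamus 2 members were higher and 16 lower (12.3% and 18.0% of all genes tested), with a median of -0.08. Without the hypothalamus WT array 0 were lower (3.01% of all genes), without the KO array 4 (4.31%), without olfactory bulb WT 7 and without olfactory bulb KO 10. After quantile normalization 6 were higher and 6 lower (14.8% and 14.7% of all genes). Without both amygdala arrays 7 were higher and 19 lower (18.5% and 29.6% of all genes). Ndufs8 at 0.37 (SE 0.110) and Sdha at 0.22 (SE 0.059) were higher, and Uqcr11 (-0.44), Cox8a (-0.44), Cox6c (-0.41) and Cox6a1 (-0.40) were the lowest of the members called. Sdha was higher and Cox6c, Cox8a and Uqcr11 lower under all 4 treatments, shares of 9.30% and 9.41% of all genes. The last 3 lost their calls without the hypothalamus WT array, Sdha lost its call in 7 of the 12 fits that leave out 1 array, and Ndufs8 in 9.

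**Figure D4:**
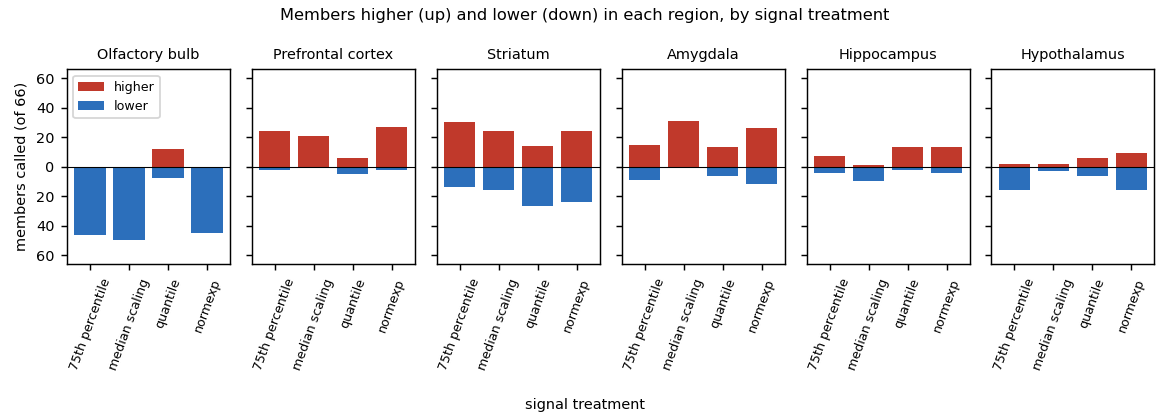
Number of the 66 members higher (red, upward) and lower (blue, downward) than the mean of the other 5 regions at a limma adjusted p under 0.05, for 4 treatments of the signal in each region. The olfactory bulb goes from 0 higher and 46 lower with the 75th percentile to 12 higher and 8 lower with quantile normalization, and the striatum from 30 and 14 to 14 and 27.

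The paired forms of complex IV subunits differed in how much they varied between regions. Cox6a1, the widespread form of subunit 6a, ranged from 7.54 (olfactory bulb KO) to 8.65 (striatum WT). Cox6a2, the muscle form, spanned 2.42 between region means, or 5.34-fold, from the olfactory bulb up to the prefrontal cortex (1.71 and 1.73; difference 1.04, SE 0.092, limma adjusted p = 0.000505). Striatum (1.62 and 1.42) and amygdala (1.13 and 1.12) came next, then hypothalamus (0.95 and 0.72) and hippocampus (0.84 and 0.43), and these last neighbours overlapped. The highest and lowest ends did not overlap any other region. Of 11 skeletal and smooth muscle genes, 4 were higher and 0 lower in the prefrontal cortex and 4 higher and 5 lower in the striatum. Over the 12 arrays Cox6a2 had r = 0.33 with the median of that list and r = 0.38 with the median of 10 neuron genes, values that describe arrays of shared slides and pools.

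Cox8b, the muscle form of subunit 8, had the widest range of all members, 2.82 or 7.06-fold between region means. It read -1.09 (WT) and -0.36 (KO) in the hippocampus, -3.71 and -3.38 in the prefrontal cortex, and -2.63 and -2.89 in the olfactory bulb. WT and KO arrays differed widely in the amygdala (-0.79 and -2.60) and the hypothalamus (-0.94 and -2.02), and the striatum read -2.11 and -1.55. The array labelled amygdala WT is the one that carried hypothalamus markers. The hippocampus was higher by 1.54 (SE 0.470, limma adjusted p = 0.0402) and the prefrontal cortex lower by 1.84 on the log2 scale (difference -1.84, limma adjusted p = 0.0233), and each call was lost without either array of its own region. That of the hippocampus was lost in 8 of the 12 fits that leave out 1 array, with the difference between 0.95 and 2.13. Markers of the choroid plexus, the epithelium that makes cerebrospinal fluid, moved with it. The median of 10 such genes relative to their means over the 12 arrays was 1.67 and 2.28 in the hippocampus, -2.39 and -2.50 in the prefrontal cortex, 2.13 and -0.28 in the amygdala and 2.07 and 1.12 in the hypothalamus. It was -1.55 and -0.39 in the striatum and -1.34 and -1.83 in the olfactory bulb. Over the 12 arrays its r with Cox8b was 0.92. The muscle list had r = -0.070 with Cox8b, the neuron genes -0.56 and the endothelium genes -0.35. These values describe arrays of shared slides and pools, and the part of the choroid plexus in the values of Cox8b was not tested. Cox8a, the widespread form, ranged only from 6.71 to 7.78.

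The other pairs varied less or were dim. Cox7a1, the muscle form of subunit 7a, ranged from 0.25 (amygdala KO) to 1.12 (amygdala WT) and passed in 0 of the 6 regions, while Cox7a2 was higher in the prefrontal cortex (0.32) and striatum (0.48) and lower in the olfactory bulb (-0.40) and hypothalamus (-0.30). Cox7a2l, which takes part in joining complexes III and IV, was lower in the olfactory bulb (-0.44) and higher in the striatum (0.25). Cox6b1 was lower in the olfactory bulb (-0.35) and striatum (-0.46) and higher in the amygdala (0.34), and its testis form Cox6b2 passed in 0 regions. Cox4i1 was lower in the olfactory bulb (-0.48) and higher in the prefrontal cortex (0.34) and striatum (0.47), and Cox4i2 passed in 0. Ndufa4, named for complex I and known to bind complex IV, was higher in the prefrontal cortex (0.25) and lower in the hypothalamus (-0.25). Of the complex I core, Ndufv1, which binds NADH, and Ndufs7, which holds the last iron-sulfur cluster before the quinone, were higher in the prefrontal cortex (0.31 and 0.21) and lower in the olfactory bulb (-0.28 each), but under quantile normalization the olfactory bulb values turned to 0.089 and 0.073. Ndufs1, which holds several iron-sulfur clusters, passed in 0 of the 6 regions.

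Between genotypes, 0 of the 66 members passed across the 6 regions (10 of 24862 genes, 0.0402%, did: 0.0161% higher and 0.0241% lower), in a limma fit with region as a block. At an unadjusted p under 0.05 there were 8 members higher (10% of all genes) and 10 lower (13.3%) in the KO, or 18 against 23.3% of all genes in either direction. The members' median KO minus WT difference was 0.0015 and that of all genes -0.023. In all 6 regions alike 7 members were higher (8.29% of all genes) and 8 lower (8.74%). The repeated unit is the region, the pools of several regions may share mice, and slide position followed genotype throughout, so that the 2 cannot be told apart.

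The 5 members of smallest p are given as values. Ndufs8 differed by 0.42 (KO minus WT, SE 0.082, limma adjusted p = 0.0980), with 0.34 in the olfactory bulb, 0.78 in the prefrontal cortex, 0.21 in the striatum, 0.49 in the amygdala, 0.39 in the hippocampus and 0.28 in the hypothalamus. Sdhb differed by 0.46 (SE 0.138, limma adjusted p = 0.133), from 0.97 in the prefrontal cortex down to -0.13 in the striatum, the only region where the KO array was the lower. Ndufb6 differed by 0.24 (SE 0.061, limma adjusted p = 0.113) and was above WT in 6 of 6 regions. Ndufab1, the mitochondrial acyl carrier protein, differed by 0.18 (SE 0.045, limma adjusted p = 0.112), between 0.087 and 0.23 in the 6 regions. With normexp background correction it passed (0.21, limma adjusted p = 0.0464). A second, dimmer probe of Ndufab1 (mean level -2.61, against 3.57) had the opposite sign, at -0.097 (limma adjusted p = 0.452). Uqcr11 differed by -0.17 (SE 0.052, limma adjusted p = 0.137) and was below WT in 6 of 6 regions, from -0.28 in the prefrontal cortex to -0.029 in the hypothalamus. Without the amygdala arrays the differences were 0.40 (Ndufs8), 0.41 (Sdhb), 0.23 (Ndufb6), 0.17 (Ndufab1) and -0.17 (Uqcr11), with limma adjusted p between 0.199 and 0.253.

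Of the complex I core, Ndufs7 (0.020), Ndufv1 (0.040), Ndufs3 (0.063) and Ndufs1 (0.14) had values above 0, as did Ndufs8, and 0 of these passed. Of complex III, 2 of 8 had values above 0, with a median of -0.072, and of complex IV 6 of 17, with a median of -0.039. Sdha differed by 0.11 (SE 0.044, limma adjusted p = 0.211) and was above WT in 6 of 6 regions. Sdhd lies 2 protein-coding genes from Il18 on chromosome 9. It read 3.86 (WT) and 3.68 (KO) in the olfactory bulb, 4.32 and 4.22 in the prefrontal cortex, 3.80 and 3.73 in the striatum, 4.13 and 3.99 in the amygdala, 4.13 and 3.85 in the hippocampus and 4.04 and 3.97 in the hypothalamus. The KO array was the lower in every region, by -0.14 across them (SE 0.051, limma adjusted p = 0.176), which missed the threshold, and by -0.14 (limma adjusted p = 0.274) without the amygdala arrays.

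The members that split in the striatum are set side by side with their values between genotypes, taken from the same 12 arrays. The 14 members lower in the striatum under all 4 treatments had a median KO minus WT difference of 0.13, with 13 (92.9%) above 0. All 4405 genes so called had a median of 0.099, with 79.8% above 0. The 14 higher members had a median of -0.12, with 2 (14.3%) above 0, and all 7219 genes so called a median of -0.15, with 16.1% above 0. The signs thus lay the same way among all genes as among the members. Without the amygdala arrays the members' medians were 0.12 and -0.090, with 13 and 2 above 0. Sdhb, Ndufs8 and Ndufa10, grouped after their values were seen, followed each other over the 12 arrays with r between 0.986 and 0.988 in the 3 pairs, and between 0.982 and 0.988 over the 10 arrays without the amygdala. The striatum arrays, where these genes were picked as low, enter both sets of r, so the choice favoured a high r. No r of other members was taken. The levels of these 3 genes were lowest on the striatum arrays and highest on the prefrontal cortex and amygdala KO arrays. In the prefrontal cortex the KO minus WT difference was 0.97, 0.78 and 0.85 in this order, and in the striatum -0.13, 0.21 and -0.038. For the 16 genes of the tricarboxylic acid cycle and of pyruvate dehydrogenase, medians were taken relative to the 12-array mean. They were -0.48 and -0.50 on the striatum arrays, 0.29 on prefrontal cortex KO and 0.33 on amygdala KO. The median KO minus WT difference of these 16 genes was 0.15, with 0 of 16 passing. Their part in the members' values was not tested.

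Within single regions, with 1 array per genotype and no test, 0 of the members well above background on both arrays (64 in the striatum, 65 in the prefrontal cortex and 66 elsewhere) were higher in the KO by 2-fold. Cox4i2 and Cox7b2 read 1.70 (spot error 1.49) and 1.15 (spot error 0.62) higher on the striatum KO array, but were not above background on both. The share of all genes so called was 0.308% in the olfactory bulb, 0.865% in the prefrontal cortex, 0.800% in the striatum, 0.521% in the amygdala, 0.757% in the hippocampus and 0.364% in the hypothalamus. Lower by 2-fold were 1 member in the amygdala (6.34% of all genes), 1 in the hippocampus (0.997%) and 1 in the hypothalamus (0.623%), and 0 in the olfactory bulb (0.616%), the prefrontal cortex (3.46%) and the striatum (0.760%). Cox8b was the one in the amygdala, at -1.81 (scanner spot error 0.21), and in the hypothalamus, at -1.09 (spot error 0.21). The hypothalamus marker median was 3.77 on the array labelled amygdala WT and -0.76 on amygdala KO. Genotype and tissue thus cannot be told apart in the amygdala values, the share of 6.34% among them. The choroid plexus median was 2.13 on the WT and -0.28 on the KO array of the amygdala and 2.07 and 1.12 on those of the hypothalamus. Cox7b2, a testis form of subunit 7b near background, was the one in the hippocampus, at -1.05 (spot error 0.37). The spot error covers the reading of the array and no difference between mice.

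**Figure D5:**
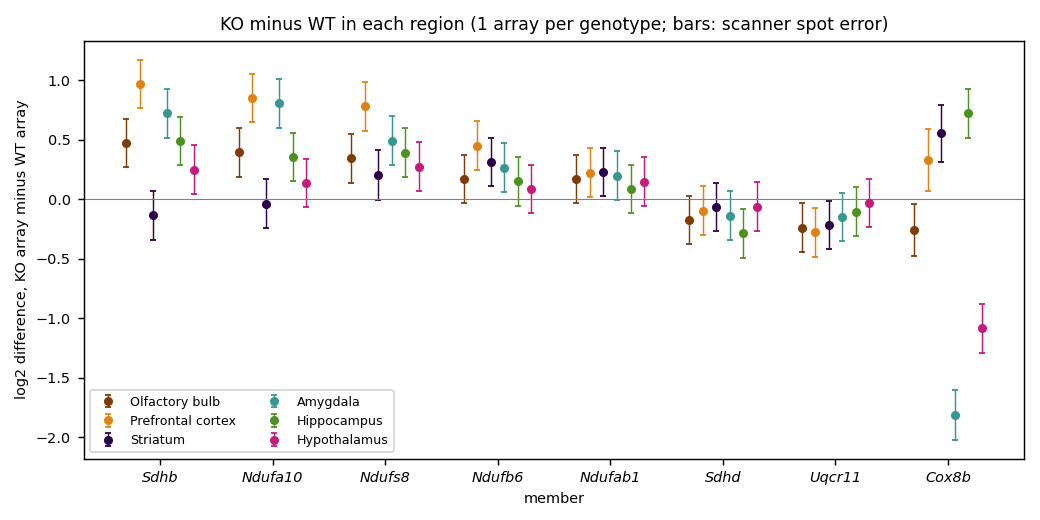
KO minus WT log2 difference of 8 members in each region, 1 array per genotype; colours are regions and bars the scanner software's spot error of the difference. Sdhb, Ndufa10 and Ndufs8 have their highest points in the prefrontal cortex, Sdhd and Uqcr11 lie below 0 in all 6 regions, and Cox8b spans -1.81 (amygdala) to 0.73 (hippocampus). The array labelled amygdala WT carried hypothalamus markers.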

How the data were processed

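RNA of 6 brain regions and 2 genotypes was labelled with Cy3 from 400 ng per array and read on 12 one-colour Agilent arrays, 1 per region and genotype. The deposited spot intensity comes from the scanner software Agilent Feature Extraction (version 9.5.3.1), which subtracted background and did not scale arrays to each other, per the file headers. A KO over WT ratio was also deposited by the authors and was used as an alternative within regions. After subtracting 1 shift per region it differed from the values computed here by at most 2e-06 in log2 over the 63 or 64 members it lists.

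From the intensity, log2 minus the array's 75th percentile was computed without control spots and outlier spots (61 to 143 per array). Accessions were matched to RefSeq gene names (GRCm38.p6) for 22951 of 41174 probes. Genes were tested where the probe was well above background on at least 6 arrays. Fits used lmFit and eBayes of limma 3.58.1 under R 4.3.3, Benjamini-Hochberg adjustment over all 24862 genes and a threshold of 0.05. The fits were also run on simulated arrays with known differences. These held no slide effects, so they check the code and not the p-values given here. The number of arrays limits the precision.

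The members and the 19 gene lists (211 entries, 13 with no named probe) were chosen with earlier results of these data known. Named were up to 4 members farthest from 0 in each direction per region, the 5 of smallest p between genotypes, those past 2-fold within a region, members with paired forms (those of complex IV, Ndufa4 and Ndufa4l2), the complex I core, complex II, Uqcrc1, Uqcrc2 and Uqcrfs1, members near Il18 and those whose probes disagree. One member that the rule names is counted in all totals and is not reported here by itself. Bright genes are the 1725 other genes whose mean level reached the lower quartile of the tested members (3.28), which sets a floor and does not match brightness. Alternatives were median scaling, quantile normalization, normexp with an offset of 50 on the median spot and background signals (in place of the planned mean signal, which was not used here), the mean of a gene's probes, other filters, arrays left out, and trend and robust variances.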

Additional observations from a re-analysis of the deposited data

How the results depend on the processing

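The fit between genotypes has region as a block and so pairs both genotypes within each region. The labels carry no replicate numbers for any other pairing. The number of arrays and the low signal of the striatum arrays limit what these comparisons can show. Scaling moved the median of all genes too, from -0.15 to 0.11 in the amygdala and from 0.036 to -0.12 in the olfactory bulb under median scaling, and from 0.088 to 0.44 in the striatum under normexp. In every case below the cause was not tested. Counts are of members higher and lower than the other regions.

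Under median scaling the members' median was 0.29 in the amygdala (31 higher, 0 lower; 30.8% and 15.4% of all genes), -0.12 in the hippocampus (1 and 10; 14.0% and 20.1%), 0.0018 in the hypothalamus (3 lower; 10.5%), -0.47 in the olfactory bulb, 0.28 in the prefrontal cortex (1 lower; 10.3%) and 0.062 in the striatum. The KO minus WT median was then 0.058 across regions, 0.24 in the amygdala and 0.18 in the prefrontal cortex, each of these 2 with 1 member higher by 2-fold, and Cox7c in the amygdala turned to 0.010.

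Under quantile normalization the medians were 0.042 in the amygdala, -0.0091 in the hypothalamus (6 and 6), -0.00028 in the olfactory bulb (12 and 8), 0.059 in the prefrontal cortex (6 and 5) and -0.14 in the striatum (14 and 27), and the hippocampus had 13 and 2.

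With normexp the medians were 0.073 in the amygdala (26 higher; 16.6% of all genes), 0.099 in the hippocampus (13 higher; 18.3%), -0.033 in the hypothalamus (9 higher; 13.2%), -0.25 in the olfactory bulb and 0.015 in the striatum (24 higher and 24 lower; 61.5% and 20.7%). Across regions 1 member was then higher in the KO, and within the hippocampus and the hypothalamus 0 were lower by 2-fold.

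Called under all 4 treatments, an alternative added after seeing the data, were 12 higher and 0 lower in the amygdala, 1 and 2 in the hippocampus, 1 and 3 in the hypothalamus, 8 lower in the olfactory bulb, 6 and 1 in the prefrontal cortex and 14 higher in the striatum. With probes above background on all 12 arrays 12 were higher in the hippocampus and 5 in the hypothalamus. The mean of probes gave an amygdala median of 0.042. By the authors' deposited ratio 0 of the 64 members it lists for the hippocampus were lower by 2-fold. Apart from 1 shift its values equal those computed here, so Cox7b2, at -1.05 here, is not among the members listed. Without the amygdala arrays 15 were higher in the hippocampus, 7 higher in the hypothalamus and 4 lower in the prefrontal cortex.

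Leaving out 1 array at a time, the median ran from 0.0096 to 0.038 in the amygdala (5 to 16 higher, 1 to 10 lower), 0.017 to 0.079 in the hippocampus (0 to 10, 0 to 4), -0.10 to -0.056 in the hypothalamus (0 to 4, 0 to 16), -0.33 to -0.29 in the olfactory bulb (0 higher, 20 to 49 lower), 0.12 to 0.22 in the prefrontal cortex (5 to 23, 0 to 3) and 0.14 to 0.21 in the striatum (28 to 31, 13 to 15). Leaving out 1 region at a time, the KO minus WT median ran from -0.0059 to 0.021 with 0 members passing. The members named as farthest above and below in the striatum kept their direction and call under every alternative run.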
